A study of Mus musculus with 6 samples.

Results

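The zinc response of splenic CD8+ T cells was followed through 4 genes. They are the metallothioneins Mt1 and Mt2, the zinc exporter Slc30a1 (the transporter ZnT1), and Mtf1, which encodes metal regulatory transcription factor 1 (MTF1). They were chosen by name and found by matching their symbols to Ensembl gene IDs, and all 4 were among the 28773 genes measured. Of the 4, Mt1 and Mtf1 were lower in the MWA+2DG group, whereas Mt2 and Slc30a1 did not pass the test.

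RNA was sequenced from CD8+ T cells of mouse spleens on day 35 in 3 MWA+PBS samples (numbered 1 to 3) and 3 MWA+2DG samples (4 to 6). The study asked how blocking glycolysis after tumor ablation changed these cells. In both groups female mice of 6 weeks bore a transplanted tumor that was destroyed by microwave ablation (MWA) on day 10. From day 10 to day 30 the MWA+2DG mice were injected every 2 days with 500 mg/kg 2-deoxy-D-glucose (2DG), a glucose analogue that blocks glycolysis, and the MWA+PBS mice with its vehicle, phosphate buffered saline (PBS). The genotype is not given in the labels, which also do not name the strain or the tumor line of these libraries, and the methods describe several tumor models in BALB/c and C57BL/6 mice. There was no group without ablation in these libraries, so both groups share it. The cells were collected 5 days after the last injection and were enriched with a CD8+ T cell isolation kit rather than sorted by flow cytometry. Whether each sample came from 1 mouse or from a pool is not stated, so p-values measure only the spread between these samples, which may in part be technical.

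Zinc that enters a cell is buffered by metallothioneins, small cysteine-rich proteins that bind zinc and copper. MTF1 senses free zinc through its zinc fingers, enters the nucleus and binds metal response elements, short sequences near the start sites of Mt1, Mt2 and Slc30a1. ZnT1 sits in the plasma membrane and moves zinc out of the cell, and in T cells zinc also takes part in signaling from the antigen receptor. Metallothionein genes respond to glucocorticoids and oxidative stress as well as to metals.

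The 2 metallothionein genes are neighbors. In the GENCODE M21 annotation of GRCm38, Mt2 lies on the plus strand at chr8:94172664-94173568 and Mt1 at chr8:94179082-94180327, with 5514 bases between the end of Mt2 and the start of Mt1. Slc30a1 lies at chr1:191906767-191913247 and Mtf1 at chr4:124802104-124849800, both on the plus strand. To show where MTF1 could find its element, the core letters TGCACNC and TGCGCNC were searched on both strands of the RefSeq promoter windows (GRCm38.p6), which run from 250 bases before to 50 bases after the annotated start. Overlapping matches on opposite strands were counted separately, and the base at the start was numbered 1. All 4 genes had a window. In the stretches below, capitals mark a match, and for a match on the other strand they show its reverse complement.
Mt1, chr8:94178839-94179081, plus strand: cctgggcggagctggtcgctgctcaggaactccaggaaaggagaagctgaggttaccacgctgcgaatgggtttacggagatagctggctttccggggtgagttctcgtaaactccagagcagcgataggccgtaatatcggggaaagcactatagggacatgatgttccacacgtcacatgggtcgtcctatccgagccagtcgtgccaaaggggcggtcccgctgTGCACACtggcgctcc
Mt1, chr8:94179089-94179117, plus strand: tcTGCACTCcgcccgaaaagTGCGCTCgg
Mt2, chr8:94172368-94172617, plus strand: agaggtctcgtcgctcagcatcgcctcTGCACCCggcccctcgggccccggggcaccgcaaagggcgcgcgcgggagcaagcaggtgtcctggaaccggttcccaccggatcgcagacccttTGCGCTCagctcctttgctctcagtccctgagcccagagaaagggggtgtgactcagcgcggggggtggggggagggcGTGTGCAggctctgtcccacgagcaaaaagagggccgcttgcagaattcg
Mt2, chr8:94172620-94172630, plus strand: tcGTGCGCAgg
Slc30a1, chr1:191906736-191906746, plus strand: ccGAGTGCAaa
Slc30a1, chr1:191906809-191906819, plus strand: ccGAGCGCAgt

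The Mt2 window held 4 matches, which began at -223 and -128 on the gene strand and at -50 and 5 on the other. The Mt1 window held 3, all on the gene strand, at -23, 3 and 21. The Slc30a1 window held 2, at -43 and 31 on the other strand, and that of Mtf1 itself held 0. Across 32851 RefSeq windows of the same length, 25.7% held at least 1 match, 7.11% at least 2, 1.97% at least 3 and 0.518% at least 4. A match is a run of letters and not evidence of binding. Positions and counts hold only for the RefSeq start used, and matches outside a window were not counted. Where transcription of these genes starts in these cells was not tested. The GENCODE start of Mtf1 lies at -445 relative to its RefSeq start, so the 0 says only that these letters are not in that window. For Mt1, Mt2 and Slc30a1 the GENCODE start minus the RefSeq start was -7, 46 and -14 bases.

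**Figure D1:**
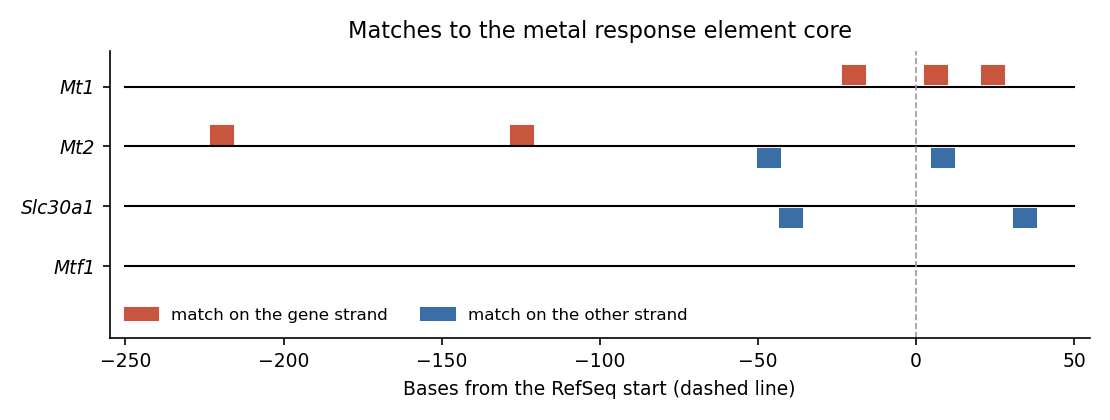
Positions of the metal response element core letters in the RefSeq promoter windows of the 4 genes. The x axis is the distance in bases from the annotated start, boxes above a line are matches on the gene strand and boxes below it are matches on the other strand. Mt1 had 3 matches, Mt2 had 4, Slc30a1 had 2 and Mtf1 had 0.

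Before the gene values, the libraries need a short account. FPKM totals were between 291803 and 313257. An FPKM of 1 was reached by 12480 to 12515 genes in the MWA+PBS libraries and by 12198 to 12282 in the MWA+2DG libraries. Mitochondrial genes held 21.4% to 22.8% of the FPKM in the former and 19.4% to 20.7% in the latter, and the part of this difference in the results was not tested. FPKM scales the fragments of a gene by transcript length and by the mapped fragments of the library. It keeps no read counts, and neither depth nor a counting interval can be given here. Samples of a group correlated at 0.984 to 0.989 on log2(FPKM + 1) and samples of different groups at 0.934 to 0.943. The T cell markers that define the labelled cells were high in every library, with a summed FPKM of 1695 to 1832 for 13 T lineage genes in MWA+PBS, against 2437 to 2623 in MWA+2DG. Libraries MWA+PBS 1 and MWA+PBS 2 stood apart from the rest in 1 respect, since all 8 genes of a kidney tubule list were above 0 in them. Summed, they came to 38.0 FPKM in MWA+PBS 1 and to 73.1 FPKM in MWA+PBS 2, against 0 in MWA+PBS 3 and at most 0.01 in the MWA+2DG libraries. Kap, an abundant transcript of the mouse kidney tubule, made up most of it, at 31.58 and 67.72 FPKM. The results below are therefore also given without these 2 libraries, an alternative chosen after the data were seen. That fit leaves 1 MWA+PBS library, which is assumed to vary like the MWA+2DG samples.

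Each gene was tested with limma on log2(FPKM + 1), MWA+2DG minus MWA+PBS, among the 12444 genes whose mean FPKM reached 1, and fold changes on this scale understate the change of low genes. Of the 4 genes, 2 were lower at a Benjamini-Hochberg adjusted p under 0.05 and 0 were higher. Over all genes tested, 39.4% passed in either direction, 22.3% of them higher and 17.1% lower as shares of all tested. Without MWA+PBS samples 1 and 2 they were again the only ones of the 4 to pass. The same 2 genes met the thresholds of the study's methods, a log2 fold change beyond 0.25 at an unadjusted P under 0.05, which 38.2% of all genes did. In 3 of the 4 genes the MWA+2DG values were all below the MWA+PBS values, and the groups failed to overlap in 52.1% of all genes, 21.9% of all genes being lower. With so many genes moving, counts over 4 genes say little, and the values of each gene follow. In bulk RNA, fewer cells of a type and less RNA per cell cannot be told apart.

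**Figure D2:**
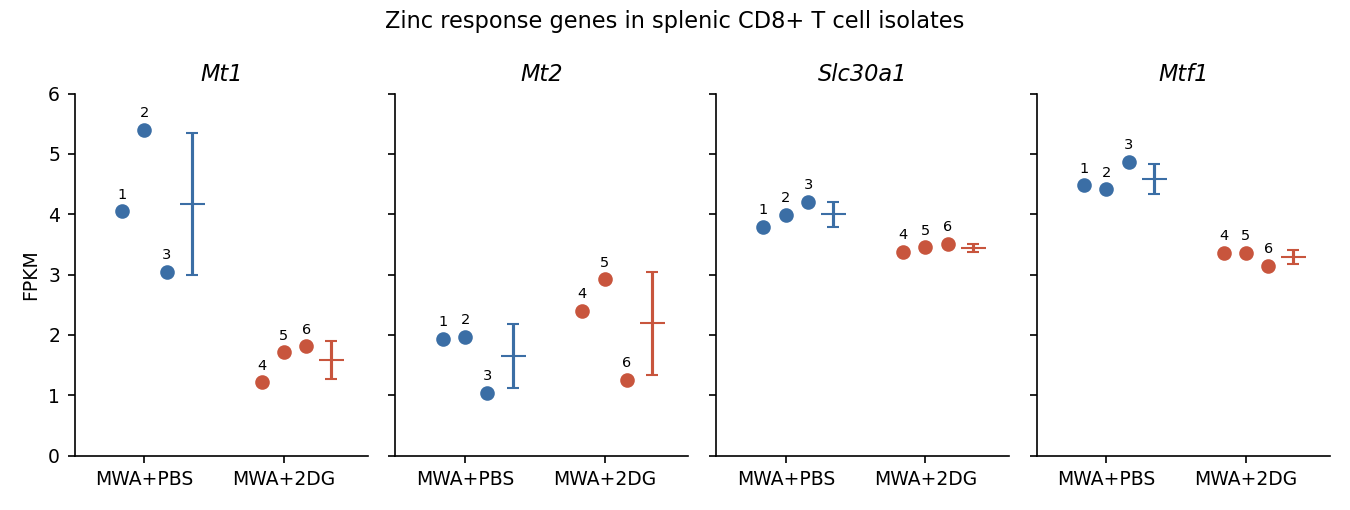
FPKM (y axis) of Mt1, Mt2, Slc30a1 and Mtf1 in each sample, numbered 1 to 3 for MWA+PBS (blue) and 4 to 6 for MWA+2DG (red), with bars for the mean and SD of each group (n = 3). Mt1, Slc30a1 and Mtf1 show no overlap between the groups, while the Mt2 points overlap.

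Mt1 was the gene of the 4 that fell most. It measured 4.05, 5.40 and 3.05 FPKM in MWA+PBS samples 1, 2 and 3. In MWA+2DG samples 4, 5 and 6 it measured 1.22, 1.71 and 1.81 FPKM. All 3 MWA+2DG values were below the lowest MWA+PBS value, and the MWA+PBS values were the more widely spread. The means were 4.17 ± 1.18 and 1.58 ± 0.316 FPKM (SD, n = 3), so that the mean was 2.64-fold lower with 2DG. The log2 fold change was -0.98 (SE 0.17, 95% interval -1.39 to -0.58, limma adjusted p = 0.00364). This change was larger in size than that of 94.7% of the genes tested.

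The order of Mt1 within the MWA+PBS group, sample 2 above 1 above 3, was also the order of the kidney tubule sum. It was not particular to that list. The T lineage sum had it too (1796, 1832 and 1695 FPKM in samples 1 to 3), while the macrophage and monocyte sum did not (708, 660 and 655 FPKM). Sample 3, in which all 8 kidney genes were at 0, still had a higher Mt1 level, at 3.05 FPKM, than each MWA+2DG sample. Without MWA+PBS samples 1 and 2 the log2 fold change of Mt1 was -0.66 (limma adjusted p = 0.0442). The part of kidney RNA in the Mt1 level of those libraries was not tested.

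**Figure D3:**
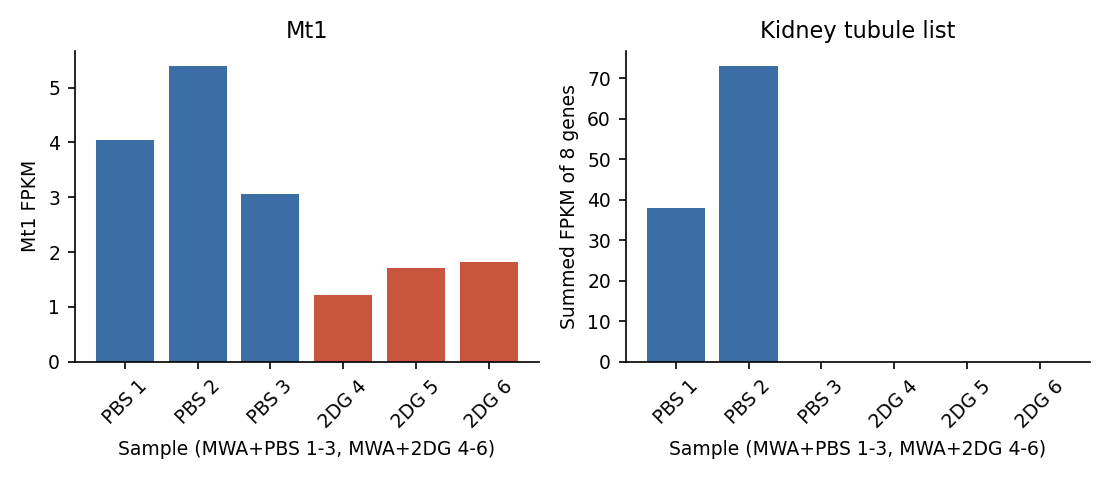
Mt1 FPKM (left, y axis) and the summed FPKM of the 8 kidney tubule genes (right, y axis) in each sample, with MWA+PBS in blue and MWA+2DG in red. Kidney genes reach 38.0 and 73.1 FPKM in MWA+PBS 1 and 2 and are at or near 0 elsewhere, while Mt1 in MWA+PBS 3 (3.05 FPKM) lies above the 3 MWA+2DG samples.

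Mt2, the second metallothionein, which is usually induced together with Mt1, had a different pattern. It measured 1.94, 1.97 and 1.04 FPKM in MWA+PBS samples 1 to 3. It measured 2.40, 2.92 and 1.26 FPKM in MWA+2DG samples 4 to 6. The groups overlapped, and within each group 1 sample (3 and 6) was well below the other two. The means were 1.65 ± 0.529 and 2.19 ± 0.849 FPKM (SD, n = 3). The log2 fold change was 0.25 (SE 0.23, limma adjusted p = 0.419), and it was -0.051 when samples were scaled to their T lineage genes. Its 95% interval, -0.29 to 0.79, leaves room for a modest fall as well as a rise. Without MWA+PBS samples 1 and 2 the value was 0.61 (limma adjusted p = 0.197).

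The pair was therefore compared within each sample, where scaling between libraries plays no part. The ratio of Mt1 FPKM to Mt2 FPKM was 2.09, 2.74 and 2.93 in MWA+PBS samples 1 to 3. It was 0.508, 0.586 and 1.44 in MWA+2DG samples 4 to 6. The ratios of the groups did not overlap, and Mt1 was above Mt2 in all 3 MWA+PBS samples and in 1 of 3 MWA+2DG samples. The mean ratio was 2.59 ± 0.443 against 0.844 ± 0.515 (SD, n = 3), a difference of -1.74 with a two-sided exact permutation p of 0.1. With 3 samples against 3, 0.1 is the smallest p this test can give. MWA+PBS 3, the MWA+PBS library without kidney transcripts, had the highest ratio. Added together, Mt1 and Mt2 came to 5.99, 7.37 and 4.09 FPKM in the MWA+PBS samples and to 3.62, 4.63 and 3.07 FPKM in the MWA+2DG samples. These sums overlapped (mean 5.82 ± 1.65 against 3.77 ± 0.791, SD, n = 3, two-sided exact permutation p = 0.2).

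**Figure D4:**
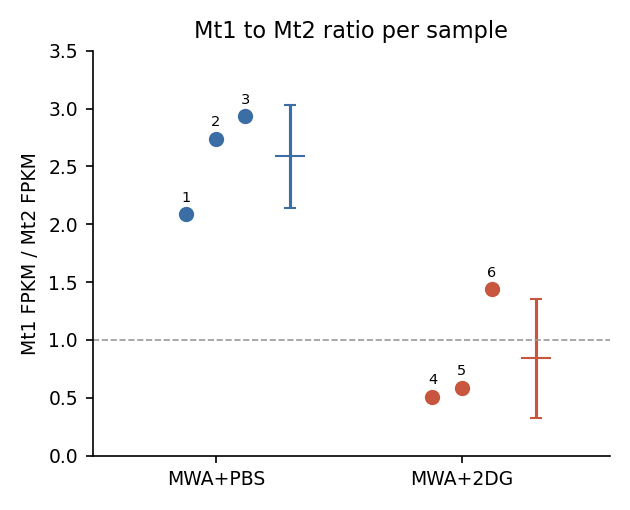
Ratio of Mt1 to Mt2 FPKM (y axis) in each sample, numbered 1 to 3 for MWA+PBS and 4 to 6 for MWA+2DG, with bars for the mean and SD (n = 3) and a dashed line where both genes are equal. The MWA+PBS ratios lie between 2.09 and 2.93 and the MWA+2DG ratios between 0.508 and 1.44.

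Both metallothioneins are short, low transcripts, which limits how finely they were measured. The annotated transcripts were 549 to 1085 bases long for Mt1 and 388 to 511 for Mt2. At these lengths the FPKM values correspond to 0.670 to 5.86 fragments in 1000000 mapped fragments for Mt1 and to 0.404 to 1.49 for Mt2. The mean FPKM of Mt1 exceeded that of 25.3% of the genes tested, and that of Mt2 exceeded 15.2%. The SE of the log2 fold change was larger than that of 92.5% of genes for Mt1 and of 96.6% for Mt2. In a BLAST search of GENCODE M21 transcripts, the best alignment of Mt1 with Mt2 covered 192 bases at 79.2% identity. The search also aligned Mt2 with Pip5k1a over 319 bases at 74.6% identity. Pip5k1a was at 12.64 to 13.89 FPKM, and its part in the Mt2 level was not tested. The antisense gene Gm45774 shares 749 bases with the Mt2 locus and was at 0 to 0.05 FPKM. The libraries mark strand, but the sources used here do not say whether the quantification used it, so reads of the 2 genes may not have been separated. The other metallothionein genes were close to absent. Mt3, known mainly from brain, was listed at 0 except for 0.04 FPKM in MWA+2DG 4, and Mt4, known from squamous epithelium, was listed at 0 except for 0.12 FPKM in MWA+PBS 3. Of the 4 metallothionein genes, 2 were tested, 1 was lower (17.1% of all genes tested were) and 1 did not pass. Their median log2 fold change of -0.37, against 0.05 over all genes, is only the midpoint of -0.98 and 0.25.

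Slc30a1, whose product exports zinc from the cell, shifted little. It measured 3.79, 3.99 and 4.21 FPKM in MWA+PBS and 3.38, 3.45 and 3.51 FPKM in MWA+2DG. The groups did not overlap, and the samples of each group lay close together. The means were 4.0 ± 0.210 and 3.45 ± 0.0651 FPKM (SD, n = 3). The log2 fold change was -0.17 (SE 0.07, 95% interval -0.32 to -0.01), which did not pass after adjustment (limma adjusted p = 0.0860). With samples scaled to their T lineage genes it was -0.55 and passed (limma adjusted p = 0.000606). Without MWA+PBS samples 1 and 2 it was -0.23 (limma adjusted p = 0.138). The antisense gene 1700034H15Rik shares 761 bases with this locus and was at 0.13 to 0.25 FPKM.

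Mtf1, the zinc sensor, was lower with 2DG in every sample. It measured 4.48, 4.41 and 4.87 FPKM in MWA+PBS and 3.36, 3.36 and 3.15 FPKM in MWA+2DG. The lowest MWA+PBS value was more than 1 FPKM above the highest MWA+2DG value. The means were 4.59 ± 0.248 and 3.29 ± 0.121 FPKM (SD, n = 3), 1.39-fold lower with 2DG. The log2 fold change was -0.38 (SE 0.07, 95% interval -0.54 to -0.22, limma adjusted p = 0.00410). Without MWA+PBS samples 1 and 2 it was -0.45 (limma adjusted p = 0.0264), and scaled to T lineage genes it was -0.76. The gene 1110065P20Rik shares 721 bases with Mtf1 on the opposite strand and was at 0.27 to 0.71 FPKM, which is low beside Mtf1. The rRNA gene n-R5s192, on the same strand within Mtf1, was at 0.14, 0 and 0.33 FPKM in MWA+PBS samples 1 to 3 and at 0 in the MWA+2DG samples.

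The order of the 4 genes by FPKM, a level scaled to transcript length, differed between the groups. In MWA+PBS it ran from Mtf1 (4.59) through Mt1 (4.17) and Slc30a1 (4.0) to Mt2 (1.65). The samples of the first 3 genes overlapped from each gene to the next, and those of Slc30a1 and Mt2 did not. In MWA+2DG it ran from Slc30a1 (3.45) through Mtf1 (3.29) and Mt2 (2.19) to Mt1 (1.58). There the samples of Mt2 and Mt1 overlapped and the other neighbors in the order did not. Mt1 thus moved from the second place to the last.

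Slc30a1 was then set among the zinc transporters of both families. The Slc30 (ZnT) family moves zinc out of the cytosol, to the outside or into organelles, and the Slc39 (ZIP) family moves zinc into it. Of 22 transporters in the files, 16 were tested, of which 3 were higher with 2DG and 0 were lower, against 22.3% and 17.1% of all genes. Among 6 exporters tested, 2 were higher, 0 were lower and 4 did not pass, with a median log2 fold change of 0.04. In all 6, Slc30a1 included, the groups did not overlap, as in 52.1% of all genes, Slc30a4, Slc30a6 and Slc30a7 having the higher values in MWA+2DG and Slc30a1, Slc30a5 and Slc30a9 in MWA+PBS.

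Slc30a7, a transporter of the early secretory pathway, measured 8.64, 9.35 and 8.98 FPKM in MWA+PBS and 11.97, 12.49 and 11.7 FPKM in MWA+2DG. Its log2 fold change was 0.39 (SE 0.06, limma adjusted p = 0.00166), and this turned to -0.054 when samples were scaled to T lineage genes. Slc30a6, found in the Golgi, measured 4.14, 3.30 and 3.49 FPKM in MWA+PBS and 5.22, 5.05 and 5.51 FPKM in MWA+2DG. Its log2 fold change was 0.43 (SE 0.08, limma adjusted p = 0.00585), and 0.04 with T lineage scaling, where it no longer passed. The exporters summed to between 32.1 and 34.2 FPKM without 2DG and to between 36.2 and 36.4 FPKM with it.

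Among 10 importers tested, 1 was higher, 0 were lower and 9 did not pass, with a median log2 fold change of 0.01. Slc39a3, an importer of the plasma membrane, measured 3.62, 2.86 and 3.51 FPKM in MWA+PBS and 4.62, 4.39 and 3.90 FPKM in MWA+2DG. Its log2 fold change was 0.29 (SE 0.10, limma adjusted p = 0.0432), but this passed narrowly, did not pass without MWA+PBS samples 1 and 2 (0.23, limma adjusted p = 0.192) and turned to -0.086 with T lineage scaling. It passed without MWA+2DG 6, but not without any of the 5 other samples in turn (limma adjusted p of 0.0547 to 0.134). The 9 others had log2 fold changes of -0.13 to 0.16. The importers summed to between 72.2 and 76.4 FPKM without 2DG and to between 72.0 and 73.3 FPKM with it. Slc39a8, an importer induced in activated T cells, was below the filter and is named after its values were seen. It measured 1.07, 1.09 and 0.87 FPKM in MWA+PBS and 0.59, 0.46 and 0.52 FPKM in MWA+2DG, so its groups did not overlap.

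**Figure D5:**
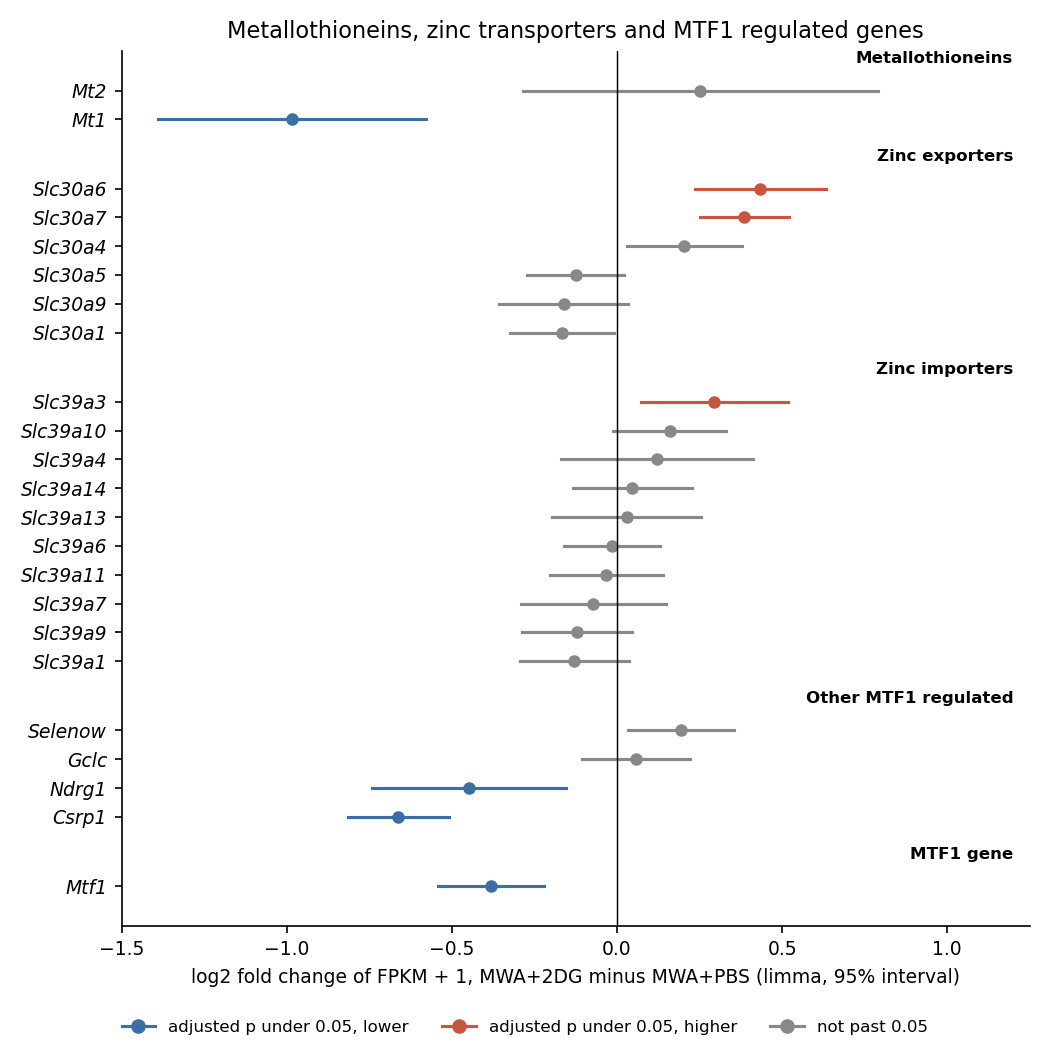
Log2 fold change of FPKM + 1 (x axis, MWA+2DG minus MWA+PBS, points with 95% intervals from limma, n = 3 per group) of the tested metallothioneins, zinc exporters, zinc importers, other MTF1 regulated genes and Mtf1. Mt1 (-0.98) has the lowest value, Slc30a6 (0.43) and Slc30a7 (0.39) have the highest (0.04 and -0.054 with T lineage scaling), and most importers lie near 0.

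Genes known to respond to MTF1 were taken as 1 list of 8, which includes Mt1, Mt2 and Slc30a1. All 8 were tested, and 0 were higher, 3 were lower and 5 did not pass, with a median log2 fold change of -0.06. The list mixes induced genes with Slc39a10, which MTF1 represses, so the median gives no direction of MTF1 activity. The share that passed was close to the 39.4% of all genes tested. All 3 that passed were lower, while over all genes tested 22.3% were higher and 17.1% were lower. The 3 were Mt1, Csrp1 and Ndrg1. Csrp1, which encodes a LIM domain protein, measured 35.2, 30.7 and 32.4 FPKM in MWA+PBS and 21.0, 20.5 and 19.4 FPKM in MWA+2DG (log2 fold change -0.66, limma adjusted p = 0.000220). Ndrg1, a stress and hypoxia responsive gene, measured 4.31, 5.27 and 3.45 FPKM in MWA+PBS and 3.02, 2.66 and 2.96 FPKM in MWA+2DG (log2 fold change -0.45, limma adjusted p = 0.0254). Ndrg1 had the same sample order in MWA+PBS as Mt1, and without samples 1 and 2 its value was -0.20 (limma adjusted p = 0.244), whereas that of Csrp1 was -0.65. Ndrg1 also did not pass without MWA+PBS 1 or without any of MWA+2DG 4, 5 and 6 in turn (limma adjusted p of 0.0542 to 0.0757). Slc39a10, which MTF1 represses, was at 6.30 against 7.15 FPKM (log2 fold change 0.16, limma adjusted p = 0.126). Selenow and Gclc, which encode a selenoprotein and a glutathione synthesis enzyme, had log2 fold changes of 0.19 (limma adjusted p = 0.0600) and 0.06 (limma adjusted p = 0.556). The list summed to between 125 and 137 FPKM without 2DG and to between 124 and 131 FPKM with it.

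Metallothioneins also bind copper, so copper handling genes were set beside them. Of 11 tested, 1 was higher, 3 were lower and 7 did not pass, with a median log2 fold change of -0.22. Of all genes tested, 22.3% were higher and 17.1% were lower. Of the 3 lower copper genes, 1 (Steap3) reached the filter only through its MWA+PBS level. Steap3, a reductase of iron and copper, fell from 1.63 ± 0.147 to 0.453 ± 0.0611 FPKM (log2 fold change -0.86, limma adjusted p = 0.000525). It passed the filter only through its MWA+PBS level, and with any MWA+PBS sample left out its mean fell below 1 and it was not tested, so its call adds nothing to the count. Steap4, a related reductase below the filter that is named after its values were seen, was at 0.11, 0.10 and 0.12 FPKM in MWA+PBS and at 1.13, 0.96 and 1.24 FPKM in MWA+2DG, so the pair differed in opposite directions. Atp7a, the copper exporting ATPase, was at 3.22 ± 0.140 against 2.37 ± 0.265 FPKM (-0.33, limma adjusted p = 0.0195). Sod1, the copper and zinc superoxide dismutase, was at 15.5 ± 2.13 against 12.1 ± 1.19 FPKM (-0.33, limma adjusted p = 0.0450). Atp7a and Sod1 did not pass without MWA+PBS samples 1 and 2 (limma adjusted p = 0.0984 and 0.309). With single samples left out, Atp7a did not pass without MWA+PBS 3, MWA+2DG 4 or MWA+2DG 6 (limma adjusted p of 0.0538 to 0.0665). Sod1 passed only without MWA+PBS 3 (limma adjusted p of 0.0626 to 0.127 without each of the others). Cox17, the copper chaperone of cytochrome oxidase, rose from 2.39 ± 0.0872 to 4.19 ± 0.188 FPKM (0.61, limma adjusted p = 0.000449), and its log2 fold change was 0.25 with T lineage scaling (limma adjusted p = 0.0135). The list summed to between 53.7 and 61.3 FPKM without 2DG and to between 48.5 and 51.9 FPKM with it.

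Mt1 is also a known target of stress and steroid signals, so lists of genes of these responses were set beside it. They are to be read against the 22.3% of all genes tested that were higher and the 17.1% that were lower. Of 8 NRF2 targets tested, 0 were higher, 6 were lower and 2 did not pass (median log2 fold change -0.43), and 1 of the 6, Osgin1, reached the filter only through its MWA+PBS level. Hmox1, which degrades heme, was at 221 ± 9.18 against 26.9 ± 1.54 FPKM (-2.99, limma adjusted p = 1.87e-07). Prdx1, a peroxidase, changed by -0.41 (limma adjusted p = 0.00973), and G6pdx, which supplies NADPH, had a value of -0.10 (limma adjusted p = 0.225). The sums of the list were 329 to 348 against 115 to 128 FPKM, a difference that was mostly Hmox1, and 112 to 119 against 89.5 to 100.5 FPKM without it. Of 9 genes of the glucocorticoid list, 1 was higher, 7 were lower and 1 did not pass, with sums of 203 to 216 against 153 to 163 FPKM. Of the 7, 2 (Klf9 and Zbtb16) reached the filter only through their MWA+PBS level. Another of the 7, Nr3c1, encodes the glucocorticoid receptor itself (log2 fold change -0.17, limma adjusted p = 0.045). Tsc22d3, the glucocorticoid induced leucine zipper, changed by -0.78 (limma adjusted p = 5.47e-05) and Sgk1, a kinase, by 0.24 (limma adjusted p = 0.0159), while Ddit4 was at 0.05 (limma adjusted p = 0.575). Of 10 heat shock genes tested, 0 were higher, 9 were lower and 1 did not pass (median -1.42), with sums of 1480 to 1548 against 497 to 525 FPKM. Hspa8 changed by -0.90 and Hsp90aa1 by -1.77 on the log2 scale. Hspa1b changed by -5.64, with the reservation that it shares reads with its near-identical copy Hspa1a. The part of these responses in the Mt1 level was not tested.

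Markers of other cell types differed between the groups, and metallothioneins are expressed in many cell types, so marker lists stand beside the 4 genes, with 22.3% of all genes tested higher and 17.1% lower. Marker genes with a mean FPKM below 1 in the group where they were lower reached the filter only through the other group and had to differ, so their number is given and they add nothing to the counts. All 12 macrophage and monocyte genes were lower with 2DG (median log2 fold change -2.55, sums of 655 to 708 against 99.2 to 106.5 FPKM). C1qa, which encodes a complement component made by macrophages, was at 130 ± 7.43 against 20.3 ± 1.84 FPKM, and C1qb and C1qc changed by -2.78 and -2.63 on the log2 scale. All 7 erythroid genes tested were lower, 5 of them such genes (sums of 137 to 154 against 27.3 to 35.4 FPKM), Hba-a1 by -2.17, Hbb-bt by -1.94 and Klf1 by -1.5. Of 12 neutrophil genes 9 were higher, 2 were lower and 1 did not pass (sums of 335 to 364 against 1580 to 1755 FPKM), and 3 of the 9 (Ly6g, Retnlg and Cxcr2) were such genes. Ngp and S100a9, granule and cytosolic proteins of neutrophils, changed by 4.48 and 4.65, and Mpo, made by early granulocyte precursors, by -2.72. All 13 T lineage genes were higher (median 0.55), among them Cd8b1 from 329 ± 8.38 to 484 ± 27.2 FPKM, Trac by 0.56 and Trbc2 by 0.57 on the log2 scale.

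All 7 B cell genes tested were higher, 4 of them reaching the filter only through MWA+2DG (sums of 9.47 to 10.5 against 48.8 to 53.5 FPKM), with Cd79a at 2.60, Cd79b at 1.21 and Blk at 1.45. Both dendritic cell genes tested were lower, Itgax by -1.0 and Flt3, which reached the filter only through MWA+PBS, by -1.23 (sums of 8.85 to 9.94 against 3.47 to 4.27 FPKM). The NK cell gene tested, Ncr1, changed by -0.35 (sums of 7.99 to 9.19 against 6.07 to 6.70 FPKM). All 3 platelet genes tested were lower (median -0.97, sums of 13.3 to 17.0 against 4.65 to 7.68 FPKM), Pf4 by -1.03, Ppbp by -0.91 and Itga2b by -0.97. None of 5 fibroblast and stroma genes passed the filter (sums of 2.78 to 4.42 against 2.32 to 2.72 FPKM). The only kidney tubule gene tested, Kap, reached the filter only through MWA+PBS and did not pass (log2 fold change -3.71, limma adjusted p = 0.0675). In none of these lists was a gene present in the files at 0 in all 6 samples. The part of other cell types in the levels of Mt1, Mt2, Slc30a1 and Mtf1 was not tested.

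Genes with sample profiles most like each of the 4 were found by the root mean square difference between log2(FPKM + 1) profiles over the 6 samples, each profile centered on its own mean. The comparison describes these 6 libraries only, since the samples share the group difference. For Mt1 the closest were Gm10252 (difference 0.0945), Chordc1 (0.117), a partner of the chaperone HSP90, and Car13 (0.120), a carbonic anhydrase. Chordc1 measured 30.8, 35.9 and 28.6 FPKM in MWA+PBS and 14.7, 16.9 and 16.3 FPKM in MWA+2DG, with the same order of MWA+PBS samples as Mt1. For Mt2 the closest were Rbm12 (0.0955), Snord71 (0.114) and Uprt (0.124). Rbm12, which encodes an RNA binding protein, measured 6.40, 6.26 and 3.69 FPKM in MWA+PBS and 6.22, 7.30 and 4.39 FPKM in MWA+2DG. Like Mt2, it was lowest in samples 3 and 6 of their groups and did not pass the test (log2 fold change 0.12, limma adjusted p = 0.690).

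For Slc30a1, whose level varied little between samples, which by itself makes this measure small, the closest profiles were those of Phf3 (0.0145), Wwp2 (0.0169) and Mbtd1 (0.0204). Wwp2, a ubiquitin ligase, measured 6.86, 7.06 and 7.36 FPKM in MWA+PBS and 6.01, 6.09 and 6.13 FPKM in MWA+2DG (log2 fold change -0.19, limma adjusted p = 0.0317). For Mtf1 they were Ddi2 (0.0229), Ndc1 (0.0256) and E2f1 (0.0292). E2f1, a cell cycle transcription factor, measured 3.39, 3.29 and 3.82 FPKM in MWA+PBS and 2.46, 2.66 and 2.36 FPKM in MWA+2DG (log2 fold change -0.36, limma adjusted p = 0.00976). The sets of 3 closest genes held no other zinc response gene. That the Mt1 and Mt2 sets shared no gene follows from their log2 fold changes (-0.98 and 0.25) and adds nothing to them.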

How the data were processed

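RNA-seq of 6 splenic CD8+ T cell samples (3 MWA+PBS, 3 MWA+2DG, grouped by their labels) was analysed. The authors made poly(A), strand-marked libraries with molecular identifiers, and deposited FPKM per gene with at most 2 decimals, computed with StringTie and ballgown after mapping with HISAT2. The submitters' processing notes name cutadapt 1.9, HISAT2 2.0.4, UMI-tools, StringTie 1.3.4d and mm9. Of the annotation the sources used here give no name, and the deposited tables hold no coordinates. Each table held 28773 gene IDs, of which 28689 matched GENCODE M21 symbols.

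The test was limma 3.58.1 (R 4.3.3, eBayes with a trend, two-sided, Benjamini-Hochberg over 12444 genes with a mean FPKM of at least 1) on log2(FPKM + 1), without covariates. It was tested on simulated data. Exact permutation tests used scipy 1.17.1 in Python 3.11.15, and similar transcripts were sought with BLAST 2.17.0. Promoter windows came from RefSeq (GRCm38.p6). No common step in FPKM times length was found, so whole reads were not recovered and depth is unknown.

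The 4 genes and the 18 gene lists were chosen with earlier results of these data known. Genes named from the zinc, MTF1 and copper lists were those with an adjusted p under 0.05 whose groups did not overlap. From the other lists the 3 tested genes with the highest mean FPKM were named, and for each of the 4 genes its 3 closest profiles. Other list members are named because they did not pass, were not tested, reached the filter through 1 group only, or for a reason given where they appear. Alternatives were a pseudocount of 0.1, no filter, quantile normalization, a minimum mean FPKM of 5, median ratios, scaling to T lineage genes or without abundant gene classes, eBayes without a trend, a log2 fold change beyond 1, and leaving out each sample.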

Additional observations from a re-analysis of the deposited data

How the results depend on the processing

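Mt1 and Mtf1 kept their direction and passed at an adjusted p under 0.05 under every alternative that gave them a value, with log2 fold changes for Mt1 of -1.15 to -0.82 and for Mtf1 of -0.40 to -0.34 when each sample was left out in turn. The threshold of a log2 fold change beyond 1 was applied to the gene count alone. None of the 4 genes reached a mean FPKM of at least 5, so that filter gave them no value. Mt1 was at -1.33 with a pseudocount of 0.1. Mt2 (0.07 to 0.48) and Slc30a1 (-0.20 to -0.14) never passed with a sample left out, and the difference in the Mt1 to Mt2 ratio was then -2.04 to -1.57. Scaling to the T lineage genes, which were higher in MWA+2DG, moved the median of all genes by -0.41 on the log2 scale. Under it Mt2 turned to -0.051, Slc30a7 to -0.054 and Slc39a3 to -0.086, while Slc30a1 reached -0.55 and passed. Relative to the median of all genes, Mt1 lay at -1.03 as reported and at -0.96 with that scaling, Mt2 at 0.21 and 0.31, Slc30a1 at -0.21 and -0.19, and Mtf1 at -0.43 and -0.40. The count by adjusted p was 4907 (56.5% higher), 2951 at a mean FPKM of at least 5 and 8671 (6.22% higher) with T lineage scaling. The count by P and fold was 4752, and 2562, 8209 and, for a log2 fold change beyond 1, 627. With a sample left out these counts ran from 3669 to 5152 and from 4509 to 5030. Without MWA+PBS samples 1 and 2 the counts were 3402 and 4823. Slc39a3, Sod1 and Ndrg1 also did not pass without the filter, Sod1 without a trend, and Slc39a3 with quantile normalization or median ratio scaling. The causes of these shifts were not tested, except that fewer genes enter under the stricter filters. No paired analysis was possible because the groups share no sample number. Depth is unknown, and the low FPKM of Mt1 and Mt2 limits their precision.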
